A study of Mus musculus with 12 samples.

Results

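The genes of the SCF ubiquitin ligase and one ubiquitin gene were followed over *RBS* lesions, control eyes and murine Sonic hedgehog medulloblastomas (Shh-MB). They were chosen by name as the 7 genes *Skp1a*, *Skp2*, *Cul1*, *Rbx1*, *Fbxw7*, *Fbxw11* and *Ubb* of the 770 genes that the mouse version of the nCounter PanCancer Pathways panel counts, with no threshold on their values, although earlier results of these data were known when they were chosen. The 5 *RBS* lesions were eyes of E18.5 embryos of the genotype Rax-creERT2::Ctnnb1(ex3)Fl/+SmoM2Fl/+, whose mothers had received tamoxifen at E8.5. Tamoxifen activates the Cre recombinase, which the *Rax* promoter drives in retinal precursors, and recombination switches on a stabilized beta-catenin and an active Smoothened, so that Wnt and Shh signaling are both on. The 4 control eyes came from E18.5 embryos that carried the same floxed alleles, Ctnnb1(ex3)Fl/+SmoM2Fl/+, without Cre; the sample labels do not state whether they were exposed to tamoxifen. The 3 Shh-MBs were hindbrain tumors of hGFAP-cre::SmoM2Fl/+ mice at 14 days, in which Cre under the human GFAP promoter activates Smoothened alone. Each sample was 1 lesion, eye or tumor of an individual animal. RNA came from the whole tissue, in which fewer cells of a type and less RNA per cell cannot be told apart. Tumors and eyes also differed in organ and age, which cannot be told apart from the tumor state.

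SCF ligases attach ubiquitin to proteins and thereby mark them for the proteasome. *Cul1* encodes the scaffold, *Rbx1* the RING subunit that recruits the ubiquitin-loaded enzyme, and *Skp1a* (now *Skp1*) the adaptor that holds an exchangeable F-box protein. The F-box protein selects the substrate: *Fbxw11* encodes a beta-TrCP protein, which binds phosphorylated beta-catenin and Gli proteins; *Fbxw7* encodes the receptor for cyclin E, Myc, Mycn, Jun and Notch; and *Skp2* encodes the receptor for the Cdk inhibitor p27 and is most abundant in cycling cells. The exon that Cre removes from *Ctnnb1* encodes the phosphorylation sites that beta-TrCP reads. *Ubb* encodes polyubiquitin, a chain of ubiquitin units that is cut into single molecules, and responds to stress.

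Values were normalized signals on the linear scale. The depth, calculated as the total signal divided by the value of 1 count, ranged from 335392 to 716684 counts above background, and the shallowest sample was *RBS* 1. None of the 7 genes was at the lowest value of any sample, and the smallest value, *Skp2* in *RBS* 1, rested on 79.3 counts. Each probe has its own efficiency, so that levels were compared between samples and not between genes. None of 16 eye genes looked for, among them *Pax6*, *Rax* and *Crx*, was on the panel, so that the eye identity of the samples was not checked. The Shh target *Ptch1*, which encodes the Hedgehog receptor, had a mean signal of 192 ± 22.7 (SD, n = 4) in control eyes, 893 ± 106 (n = 5) in *RBS* lesions and 1028 ± 98.0 (n = 3) in Shh-MBs. The position of the *Ctnnb1* probe is not given in the sources used here, so that recombination of its exon was not checked.

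The sequences upstream of the transcription starts are shown for the 3 genes that rose together in *RBS* lesions and for *Fbxw7*, which fell. They were taken from RefSeq (mouse build GRCm38.p6), where 6 of the 7 genes were found under their own symbol and *Skp1a* under *Skp1*, with 13 start sites in all. Each run is on the plus strand, 5′ to 3′, and ends at the base before the start; capitals mark matches to a searched motif on either strand. The first 3 hold the 250 bases upstream of *Skp1* (chr11:52231745-52231994), *Rbx1* (chr15:81466066-81466315) and *Fbxw11* (chr11:32642305-32642554).
*Skp1*: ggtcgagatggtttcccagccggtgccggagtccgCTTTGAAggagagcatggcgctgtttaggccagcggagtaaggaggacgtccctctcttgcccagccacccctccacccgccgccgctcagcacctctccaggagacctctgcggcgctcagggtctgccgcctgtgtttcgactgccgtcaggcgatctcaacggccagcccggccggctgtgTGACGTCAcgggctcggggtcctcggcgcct
*Rbx1*: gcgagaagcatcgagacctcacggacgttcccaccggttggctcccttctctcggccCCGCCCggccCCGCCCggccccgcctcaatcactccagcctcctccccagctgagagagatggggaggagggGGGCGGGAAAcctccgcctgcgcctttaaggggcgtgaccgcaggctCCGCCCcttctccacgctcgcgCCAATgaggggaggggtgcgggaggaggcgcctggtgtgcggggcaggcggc
*Fbxw11*: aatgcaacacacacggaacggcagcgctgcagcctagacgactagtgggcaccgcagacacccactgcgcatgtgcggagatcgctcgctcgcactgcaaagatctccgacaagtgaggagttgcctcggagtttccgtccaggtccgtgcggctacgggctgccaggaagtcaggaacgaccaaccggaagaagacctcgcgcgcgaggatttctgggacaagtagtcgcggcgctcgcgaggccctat
The windows of *Skp1*, *Rbx1* and *Fbxw11* had a GC content of 68.0, 72.4 and 62.0 percent. In *Skp1*, the capitals mark CTTTGAA, a motif of the Wnt effectors TCF and LEF, at position -215 from the start, and the cyclic AMP response element TGACGTCA at -31. In *Rbx1*, they mark the Sp motif GGGCGG at 4 positions, one of which (-121) overlaps the E2F motif TTTCCCGC on the minus strand, and CCAAT at -52. No searched motif was found in the *Fbxw11* window. CTTTGAA was present in 4.46 percent of all 32851 RefSeq windows of this length, TGACGTCA in 1.55 percent, TTTCCCGC in 0.895 percent, CCAAT in 33.8 percent and GGGCGG in 32.7 percent. The TCF and LEF motif CTTTGAT, the Gli motif GACCACCCA, the E2F motifs TTTGGCGC and TTTCGCGC and the heat shock element, searched in both orders of its alternating GAA and TTC units, matched none of the 13 windows.

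*Fbxw7* has 3 start sites in RefSeq, and the single value of its probe does not separate transcripts by start. The 120 bases before each start are given to show how different these regions are, for chr3:84815457-84815576, chr3:84864025-84864144 and chr3:84952091-84952210.
*Fbxw7* start 1: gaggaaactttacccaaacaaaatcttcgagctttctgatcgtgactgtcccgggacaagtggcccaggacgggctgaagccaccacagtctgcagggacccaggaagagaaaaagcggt
*Fbxw7* start 2: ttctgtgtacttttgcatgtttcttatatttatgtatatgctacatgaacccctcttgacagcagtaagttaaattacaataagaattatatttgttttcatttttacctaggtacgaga
*Fbxw7* start 3: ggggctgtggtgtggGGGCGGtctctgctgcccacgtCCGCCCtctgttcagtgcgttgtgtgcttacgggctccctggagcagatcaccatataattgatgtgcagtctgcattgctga
Over 250 bases, the GC content upstream of the 3 starts was 68.0, 28.8 and 45.6 percent. The capitals mark the Sp motif, which was found at -105 and, on the minus strand, at -83 of start 3; 3 further Sp motifs of start 1, at -171 and, on the minus strand, at -187 and -127, lie outside the bases shown. Starts 2 and 3 lie downstream of start 1, within the gene.

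In *RBS* lesions compared to control eyes, the adaptor *Skp1a*, the RING subunit *Rbx1* and the beta-TrCP gene *Fbxw11* were higher, and the F-box genes *Fbxw7* and *Skp2* were lower. *Fbxw7* was 1.83-fold lower and *Rbx1* 1.56-fold higher. The scaffold *Cul1* and the ubiquitin gene *Ubb* did not pass the test. Thus, 5 of 7 genes were called at a limma adjusted p under 0.05 (3 higher, 2 lower), where 51.2 percent of all genes on the panel were called (33.0 percent higher, 18.2 percent lower). All values of the 5 called genes lay outside the range of the other group, which applied to 43.4 percent of all genes (27.5 percent higher, 15.8 percent lower). Over all genes, 254 were higher and 140 lower as deposited (median log2 difference 0.17), 177 and 177 with samples centred on their median, and 187 and 179 with quantile normalization. The median absolute log2 difference was 0.51 over the 7 genes and 0.47 over all genes, so that these genes changed by about as much as the rest of the panel. The test named in the methods, run here without their permutations and with step-down Bonferroni adjustment, called none of the 7 genes (5 had an unadjusted p under 0.05, as did 399 of all 770 genes) and 72 genes in all.

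**Figure D1:**
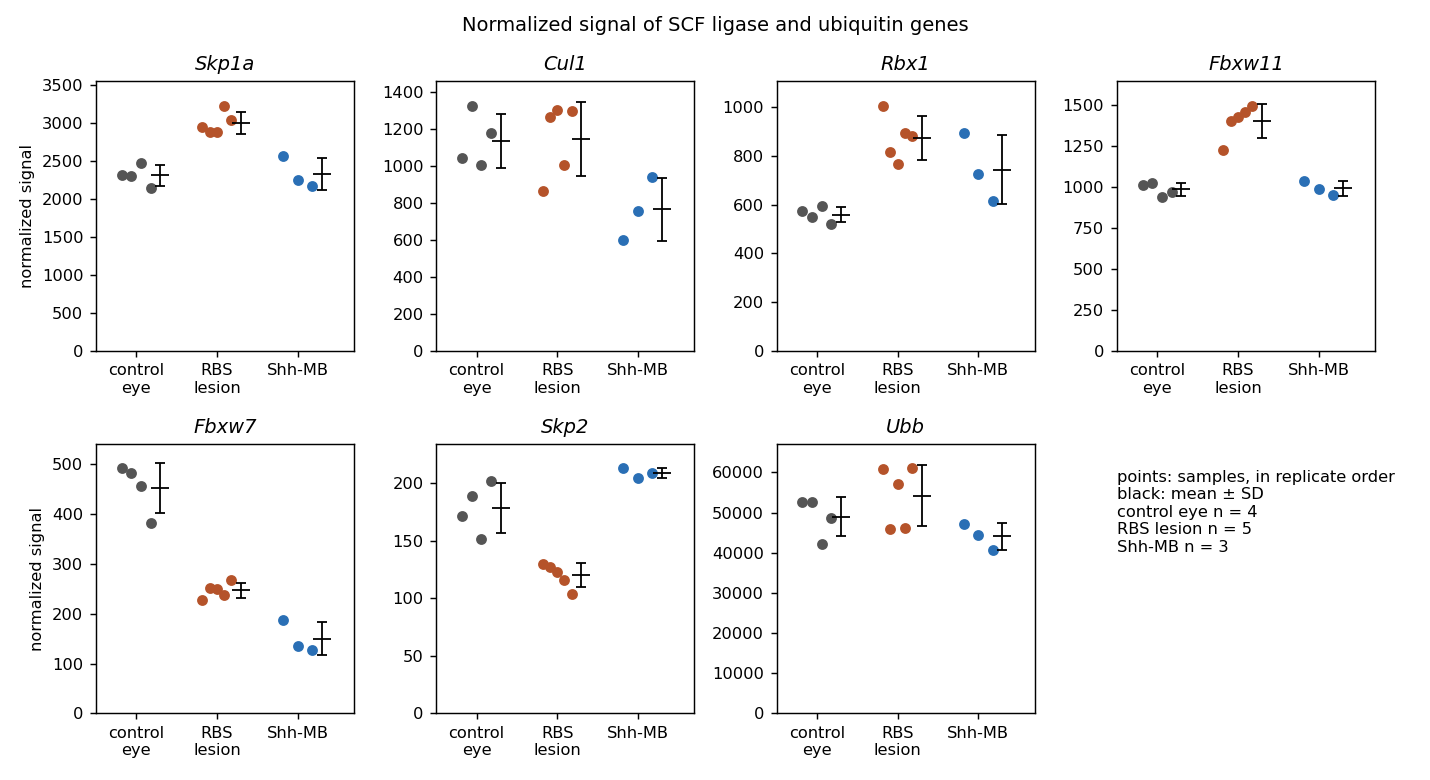
Normalized signal (linear scale, arbitrary units, axes starting at 0) of each gene in 4 control eyes, 5 *RBS* lesions and 3 Shh-MBs; points are samples and black marks show the mean ± SD. *Skp1a*, *Rbx1* and *Fbxw11* of *RBS* lesions lie above all control eyes, and *Fbxw7* and *Skp2* lie below them.

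Among the core subunits, *Skp1a* had signals of 2950, 2880, 2886, 3230 and 3042 in *RBS* 1 to 5, and of 2318, 2300, 2477 and 2149 in control eyes 1 to 4. The lowest lesion was above the highest control eye. The mean was 2998 ± 146 (SD, n = 5) in lesions and 2311 ± 134 (n = 4) in control eyes; on the log2 scale these differed by 0.38 (SE 0.0790, 95% CI 0.20 to 0.55, limma adjusted p = 0.00352). The call was lost when samples were centred on their median (log2 difference 0.20, limma adjusted p = 0.116). It was also lost when samples were blocked by their replicate number (log2 difference 0.37, limma adjusted p = 0.0554). Shh-MBs had *Skp1a* signals of 2568, 2249 and 2176, within or near the range of control eyes.

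*Rbx1* showed the largest rise of the 7 genes as deposited, but not with quantile normalization, where *Skp1a* was at 0.45 and *Rbx1* at 0.42. Its signal was 1007, 816, 765, 896 and 882 in *RBS* 1 to 5 and 572, 549, 595 and 520 in control eyes 1 to 4. The means of 873 ± 91.4 (SD, n = 5) and 559 ± 32.2 (n = 4) differed by 0.64 on the log2 scale (SE 0.0989, 95% CI 0.41 to 0.86, limma adjusted p = 0.000630). Shh-MBs lay at 893, 724 and 613, so that all of them exceeded the control eyes. Only Shh-MB 1 lay within the range of the lesions, and the other tumors lay below every lesion.

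*Cul1* did not follow the other core subunits. The signal was 865, 1265, 1305, 1007 and 1301 in *RBS* 1 to 5, 1044, 1328, 1005 and 1177 in control eyes and 598, 758 and 940 in Shh-MBs. Lesions and control eyes overlapped over most of their range, with a log2 difference of 0.00 (95% CI -0.35 to 0.35, limma adjusted p = 0.989), and all Shh-MBs lay below all control eyes. *Cul1* also had the largest spread within *RBS* lesions of the 7 genes (SD 17.5 percent of the mean). Its 2 lowest lesions, *RBS* 1 and *RBS* 4, were the shallowest of their group, with 335392 and 447999 counts against 575224 to 637795 in the others, and both had more *Rbx1* signal than the other 3 lesions. In Shh-MBs 1, 2 and 3 the depth was 541092, 638521 and 707210 counts, in the same order as *Cul1* and in the reverse order of *Rbx1*. In control eyes, *Cul1* was highest in the deepest sample, but the order of the others did not follow depth. The part of depth in these values was not tested.

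Among the F-box genes, *Fbxw11* had signals of 1226, 1399, 1424, 1454 and 1496 in *RBS* 1 to 5, 1008, 1024, 936 and 969 in control eyes, and 1034, 989 and 947 in Shh-MBs. Each lesion was above every control eye and, as deposited, above every Shh-MB; the difference to Shh-MBs turned with median centring (log2 difference -0.35). The mean of 1399.8 ± 103 (SD, n = 5) in lesions compared to 984 ± 39.7 (n = 4) in control eyes gave a log2 difference of 0.51 (SE 0.0849, 95% CI 0.31 to 0.70, limma adjusted p = 0.000996), or 1.42-fold.

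*Fbxw7* went in the opposite direction and had the largest difference of the 7 genes. Its signal was 227, 251, 251, 238 and 268 in *RBS* 1 to 5, 492, 483, 456 and 381 in control eyes, and 187, 135 and 127 in Shh-MBs. The 3 groups did not overlap, with control eyes highest and, as deposited, Shh-MBs lowest; the order of lesions and Shh-MBs turned with median centring (log2 difference -0.11). From 453 ± 50.3 (SD, n = 4) in control eyes to 247 ± 15.7 (n = 5) in lesions it fell by 0.87 on the log2 scale (SE 0.101, 95% CI -1.10 to -0.64, limma adjusted p = 0.000129).

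*Skp2* was also lower in lesions. The signal was 130, 127, 123, 116 and 104 in *RBS* 1 to 5, compared to 172, 189, 151 and 202 in control eyes and 213, 205 and 209 in Shh-MBs. Every lesion was below every other sample, and Shh-MBs were above all control eyes by a small margin. The lesion mean of 119.97 ± 10.5 (SD, n = 5) was 1.48-fold below the control mean of 179 ± 22.0 (n = 4), a log2 difference of -0.57 (SE 0.112, 95% CI -0.82 to -0.31, limma adjusted p = 0.00256). For each of the 5 called genes, the exact permutation test over samples (two-sided) gave p = 0.00794, the smallest value that 5 against 4 samples allow. The calls of *Rbx1*, *Fbxw11*, *Fbxw7* and *Skp2* held when samples were centred on their median, quantile normalized or scaled to the total signal without the 3 most abundant genes, called scaling to the total from here on.

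*Ubb* varied within groups. Its signal was 60970, 45965, 57063, 46163 and 61046 in *RBS* 1 to 5, 52533, 52730, 42274 and 48553 in control eyes and 47185, 44517 and 40619 in Shh-MBs. The lesions split into 3 samples above and 2 within the range of control eyes, and the log2 difference of 0.14 (95% CI -0.15 to 0.43, limma adjusted p = 0.409) was smaller than the spread between samples. As a share of all signal, *Ubb* made up 8.55 to 11.6 percent in lesions, 6.07 to 7.59 percent in control eyes and 6.77 to 7.79 percent in Shh-MBs. These shares were set by other genes too, since the 3 most abundant genes took up 26.9 to 29.7 percent of the signal in lesions and 42.8 to 51.8 percent in the other samples. Quantile normalization gave *Ubb* a log2 difference of 0.97 (limma adjusted p = 0.00227), which follows from its rank among the signals of a sample, 1 or 2 in every lesion and 3 in every other sample, and does not measure a rise.

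**Figure D2:**
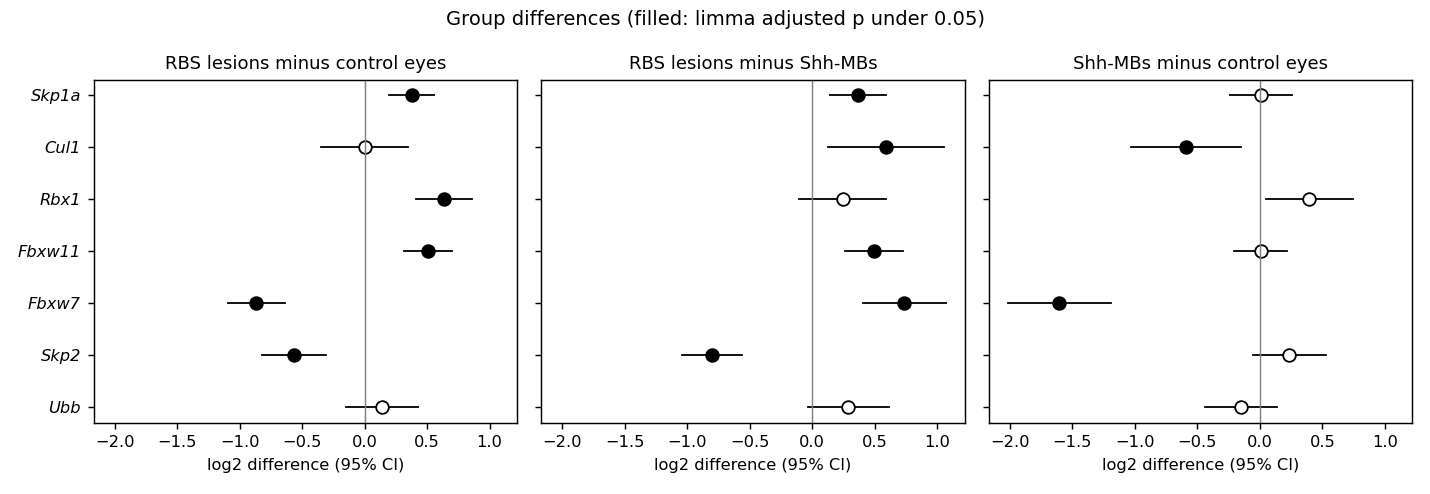
Log2 differences of the 7 genes in the 3 comparisons (x axis, first group minus second) with 95% confidence intervals from limma; filled circles have an adjusted p under 0.05. Against control eyes, 3 genes of *RBS* lesions lie right of 0 and 2 lie left of it among the filled circles; control eyes and lesions each enter 2 comparisons.

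The ratios of the F-box genes to the core subunits within a sample do not depend on a scaling factor per sample, but quantile normalization changes them. They were chosen after the values were seen and are a description with no test. Relative to the mean log2 signal of *Skp1a*, *Cul1* and *Rbx1*, *Fbxw7* lay at -1.33 ± 0.14 (SD, n = 4) in control eyes, -2.54 ± 0.046 (n = 5) in *RBS* lesions and -2.87 ± 0.27 (n = 3) in Shh-MBs. *Skp2* lay at -2.67 ± 0.19, -3.57 ± 0.18 and -2.37 ± 0.013 in the same order, so that lesions were below all other samples. *Fbxw11* lay at -0.21 ± 0.060, -0.04 ± 0.072 and -0.14 ± 0.044, with the highest mean in lesions, of which *RBS* 1 lay within the range of control eyes. The log2 difference between *Fbxw11* and *Fbxw7* ranged from 1.03 to 1.34 in control eyes, from 2.43 to 2.61 in lesions and from 2.46 to 2.89 in Shh-MBs. Lesions and tumors overlapped in this ratio, and both were above all control eyes. Absolute values of such ratios include the probes' efficiencies, and only their differences between samples can be read.

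**Figure D3:**
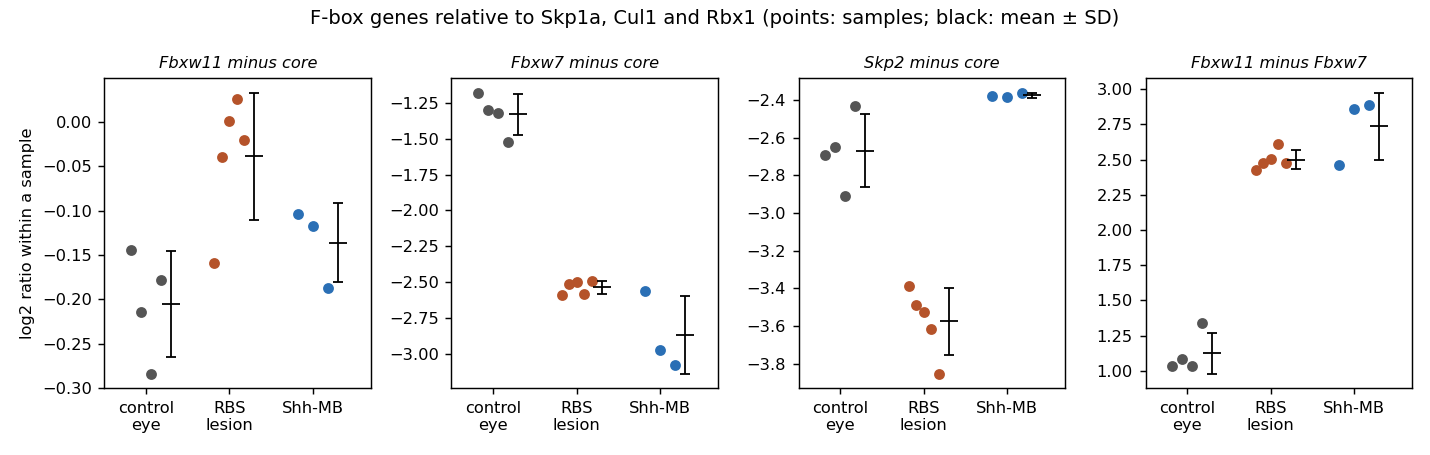
Log2 ratio within a sample (y axis) of *Fbxw11*, *Fbxw7* and *Skp2* to the mean of *Skp1a*, *Cul1* and *Rbx1*, and of *Fbxw11* to *Fbxw7*; points are samples, black marks the mean ± SD, and the axes do not start at 0. *Fbxw7* relative to the core is highest in control eyes, and *Skp2* relative to the core is lowest in *RBS* lesions.

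Transcripts of the ligases' substrates were looked at next; since SCF ligases act on proteins, their RNA is no readout of the ligase. Of 7 beta-TrCP substrates on the panel, 2 were higher and 3 lower in *RBS* lesions compared to control eyes (median log2 difference -0.10, all genes 0.17), and 1 and 4 with median centring and with quantile normalization. *Ctnnb1*, which encodes beta-catenin, had a signal of 5467 to 5869 in control eyes and 7400 to 8364 in lesions and rose by 0.48 on the log2 scale (SE 0.0746, limma adjusted p = 0.000630). *Gli3*, a Hedgehog transcription factor that acts mainly as a repressor, fell by 1.34 (SE 0.139, limma adjusted p = 7.28e-05), from 294 to 390 in control eyes to 102 to 151 in lesions. *Wee1*, a kinase that delays mitosis, fell by 0.91 (limma adjusted p = 9.40e-05).

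Of 7 *Fbxw7* substrates, 1 was higher, 2 were lower and 4 did not pass the test in lesions (median -0.22); with median centring 0 were higher and 4 lower. *Mycn*, a Myc family transcription factor and Shh target, fell by 0.87 (SE 0.114, limma adjusted p = 0.000250), and *Ccne2*, a cyclin E, fell by 0.90 (SE 0.135, limma adjusted p = 0.000522). *Jun*, a subunit of AP-1, rose by 0.35 (limma adjusted p = 0.0285), a call that was lost with median centring and with quantile normalization. *Ccne1* and *Myc* had log2 differences of -0.32 and 0.18 (limma adjusted p = 0.171 and 0.526). Of 4 *Skp2* substrates, only *E2f1*, a transcription factor of S phase genes, passed the test, and it fell by 2.00 (SE 0.184, limma adjusted p = 3.44e-05); with median centring 2 of the 4 were lower, *E2f1* and *Cdkn1b*. The Cdk inhibitor genes *Cdkn1b*, which encodes p27, and *Cdkn1a*, which encodes p21, had log2 differences of -0.19 and 0.19 (limma adjusted p = 0.177 and 0.460).

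The genes that prepare beta-catenin and Gli proteins for beta-TrCP, namely the destruction complex and the priming kinases, rose in part. Of 8 on the panel, 5 were higher and none was lower in lesions compared to control eyes (median 0.53); 3 were higher with median centring, and quantile normalization added 1 lower gene, *Sufu*. *Prkacb*, a catalytic subunit of protein kinase A, which phosphorylates Gli proteins, rose by 1.31 (SE 0.148, limma adjusted p = 0.000114). *Axin2*, a scaffold of the destruction complex and a Wnt target gene, rose by 0.92 (SE 0.124, limma adjusted p = 0.000292), from 90.6 to 108 in control eyes to 151 to 228 in lesions.

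Of 24 other genes of the ubiquitin system, 6 were higher and 4 lower in lesions (median 0.16, close to the median of 0.17 over all genes), and 4 and 5 with median centring. *Cyld*, a deubiquitinase that limits NF-kappaB signaling, rose by 1.01 (limma adjusted p = 0.000191), and *Vhl*, the substrate receptor for hypoxia-inducible factors, rose by 0.85 (limma adjusted p = 0.000244). *Brca1*, a ubiquitin ligase of DNA repair, fell by 1.43 (limma adjusted p = 6.97e-05), and *Birc7*, an inhibitor of apoptosis with a RING domain, fell by 2.48 (limma adjusted p = 0.00935) and was at the lowest value of the sample, 1.64, in *RBS* 1.

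**Figure D4:**
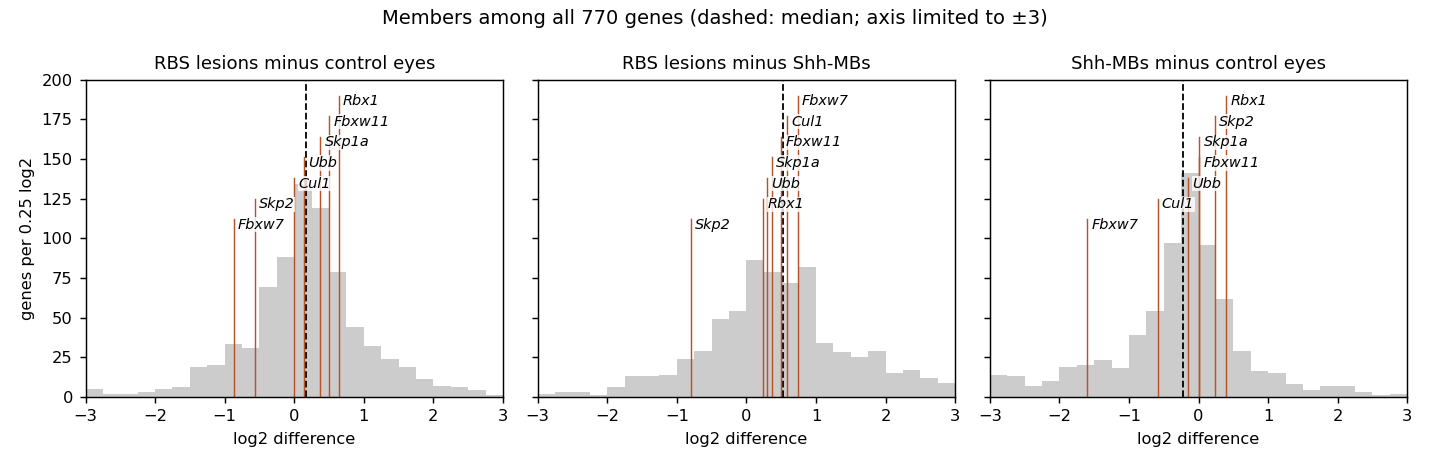
Histograms of the log2 differences of all 770 genes (grey, genes per 0.25 log2) in the 3 comparisons, with the median of all genes (dashed) and the 7 genes (brown lines, whose heights only separate the names). In *RBS* lesions compared to control eyes, *Fbxw7* and *Skp2* lie left of the median of 0.17, and *Rbx1*, *Fbxw11* and *Skp1a* lie right of it.

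Marker genes of cell types and of the cell cycle were counted in the same samples. Of 17 proliferation genes, 14 were lower and none higher in lesions compared to control eyes, and their summed signal was 5238 to 6248 in lesions, 10650 to 13026 in control eyes and 13126 to 14749 in Shh-MBs. Between Shh-MBs and control eyes, 1 of the 17 was higher and 1 lower as deposited, and 13 were higher and none lower with median centring. Of 11 neuron genes, 9 were higher and 1 lower in lesions, with sums of 3686 to 4581 in lesions, 1586 to 1766 in control eyes and 1511 to 2077 in Shh-MBs; between Shh-MBs and control eyes, 5 of the 11 were higher and 2 lower (median log2 difference 0.93, all genes -0.22). Of 14 genes of surface epithelium, 9 were higher and none lower, with sums of 2261 to 3067 in lesions, 1216 to 1803 in control eyes and 381 to 510 in Shh-MBs. Of 16 blood and immune genes, 6 were higher and none lower, where 33.0 percent of all genes were higher, with sums of 789 to 1034 in lesions, 556 to 610 in control eyes and 1443 to 1643 in Shh-MBs. *Prkcb*, a protein kinase C gene, made up most of the Shh-MB sum (mean signal 1194), and 2 of the 16 genes were higher and 1 lower in Shh-MBs than in control eyes. Of 10 mesenchyme genes, 1 was higher and 2 were lower, with sums of 20720 to 37178 in lesions, 25818 to 58335 in control eyes and 1666 to 2327 in Shh-MBs. Of 8 genes of Shh medulloblastoma, 1 was higher and 4 were lower, with sums of 5316 to 6160 in lesions, 15399 to 19447 in control eyes and 14717 to 17185 in Shh-MBs. The sum of control eyes was mostly *Ccnd1*, which encodes cyclin D1 (mean signal 13870 in control eyes, 1856 in lesions and 2200 in Shh-MBs); 6 of the 8 genes were higher and 1 lower in Shh-MBs than in control eyes. In every sample of a group, *Comp* was at the lowest value in lesions, *Flt3* and *Gzmb* in control eyes, *Flt3* and *Il2rb* in lesions, and *Il2rb*, *Gzmb*, *Calml3* and *Itga2* in Shh-MBs; each other marker was above the lowest value in at least 1 sample of each group. The part of cell composition and of cycling cells in the values of *Skp2*, *Fbxw7* and the other genes was not tested.

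The comparison of *RBS* lesions with Shh-MBs asks how the eye lesions differ from a tumor driven by Shh signaling alone, and it depended on the scaling. As deposited, 5 of 7 genes were called (4 higher, 1 lower), where 60.8 percent of all genes were called (48.1 percent higher, 12.7 percent lower); 4 of 7 did not overlap between groups, as did 59.9 percent of all genes (47.0 percent higher, 12.9 percent lower). The median of all genes lay at 0.53 and that of the 7 genes at 0.37. Centring on the sample median moved the median over all genes to -0.32 and turned the calls from 370 higher and 98 lower to 181 higher and 319 lower; quantile normalization gave 204 and 234, and scaling to that total gave 273 and 164. *Skp2* was lower in lesions under all of these scalings, with a log2 difference of -0.80 as deposited (SE 0.104, 95% CI -1.04 to -0.56, limma adjusted p = 0.000256) and of -1.65 with median centring. No other gene of the 7 kept its call under all of them, and with median centring 0 of the 7 genes were called higher and 5 lower.

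*Fbxw11* was 0.50 higher than in Shh-MBs as deposited (SE 0.100, limma adjusted p = 0.00271) and -0.35 with median centring (limma adjusted p = 0.0421). *Fbxw7* was 0.74 higher (SE 0.143, limma adjusted p = 0.00228), which median centring turned to -0.11 (limma adjusted p = 0.478). *Skp1a* was 0.37 higher (SE 0.0981, limma adjusted p = 0.0115) and -0.48 with median centring (limma adjusted p = 0.00423). *Cul1* was 0.59 higher (SE 0.200, limma adjusted p = 0.0327) with overlapping groups, -0.26 with median centring, and lost its call without Shh-MB 1, Shh-MB 2, *RBS* 2, *RBS* 3 or *RBS* 5 (limma adjusted p = 0.0673 to 0.112). *Rbx1* and *Ubb* differed by 0.24 (95% CI -0.10 to 0.59) and 0.29 (95% CI -0.03 to 0.61), and neither was called (limma adjusted p = 0.193 and 0.106), while with median centring both were called lower in lesions at -0.60 and -0.56 (limma adjusted p = 0.00435 and 0.0117); without Shh-MB 1, *Rbx1* was called at 0.38 (limma adjusted p = 0.0488), and without Shh-MB 3 it was at 0.11 (limma adjusted p = 0.567).

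**Figure D5:**
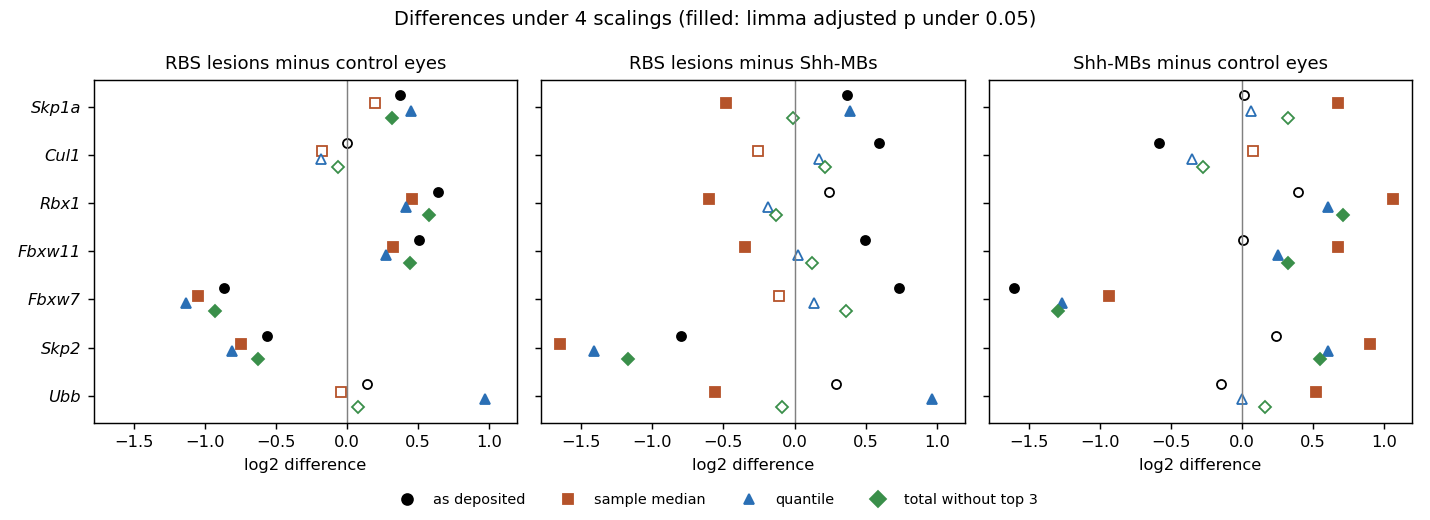
Log2 differences of the 7 genes (x axis) in the 3 comparisons as deposited (black circles), centred on the sample median (brown squares), quantile normalized (blue triangles) and scaled to the summed signal that leaves out the 3 most abundant genes (green diamonds); filled marks have a limma adjusted p under 0.05. Against control eyes the 4 marks of *RBS* lesions lie on one side of 0 for 5 genes, and against Shh-MBs they do so for *Skp2* alone.

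Shh-MBs were compared with control eyes to place the lesions between the tumor and the normal eye; all 3 comparisons share samples, so that they are no independent evidence for each other. As deposited, 2 of 7 genes were lower and none higher, where 41.0 percent of all genes were called (9.61 percent higher, 31.4 percent lower), and 4 of 7 did not overlap, as did 48.2 percent of all genes (12.2 percent higher, 36.0 percent lower). The split of all calls was 74 higher and 242 lower as deposited, 311 and 139 with median centring, 221 and 147 with quantile normalization and 160 and 177 when scaled to the total. *Fbxw7* was 3.04-fold lower in Shh-MBs (149.9 ± 32.6, n = 3), a log2 difference of -1.60 (SE 0.171, 95% CI -2.01 to -1.19, limma adjusted p = 0.000374), and it was lower and called under each scaling, with -0.94 as the smallest difference. The exact permutation test gave p = 0.0286 for *Fbxw7*, the smallest value that 3 against 4 samples allow.

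*Cul1* in Shh-MBs was at 0.665 times its level in control eyes (765 ± 171 against 1138 ± 146, log2 difference -0.59, SE 0.184, limma adjusted p = 0.0417). Without any 1 of the samples other than Shh-MB 3, the adjusted p of *Cul1* in limma was 0.0559 to 0.104, and with median centring the log2 difference was 0.08. *Skp1a* and *Fbxw11* had log2 differences of 0.01 (95% CI -0.24 to 0.26) and 0.01 (95% CI -0.20 to 0.22), with limma adjusted p = 0.942 and 0.945; with median centring both were called higher in Shh-MBs, and *Fbxw11* was also called higher with quantile normalization (0.25) and the total (0.32). *Rbx1* was higher in every Shh-MB than in every control eye by 0.40 (95% CI 0.05 to 0.74), with a limma adjusted p = 0.0693 that passed the threshold under the 3 other scalings; the difference was 0.25 without Shh-MB 1 (limma adjusted p = 0.150) and 0.53 without Shh-MB 3 (limma adjusted p = 0.0286). *Skp2* was 0.23 higher (95% CI -0.06 to 0.53, limma adjusted p = 0.175) without overlap. It was not called as deposited, but was called under the 3 other scalings. *Ubb* differed by -0.15 (95% CI -0.43 to 0.14, limma adjusted p = 0.369), and with median centring it was called higher in Shh-MBs at 0.52 (limma adjusted p = 0.0187).

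Some substrate transcripts differed more between lesions and tumors than any of the 7 genes. *Mycn* was lower in lesions than in Shh-MBs, with a log2 difference of -2.36 (SE 0.126, limma adjusted p = 3.37e-06), with 632 to 804 in lesions, 1060 to 1414 in control eyes and 3087 to 3885 in Shh-MBs. *Notch1*, a receptor, was 3.22 higher in lesions (limma adjusted p = 1.79e-06), and *Cdkn1c*, which encodes the Cdk inhibitor p57, was 4.64 higher (limma adjusted p = 1.57e-07). *Gli3* was 1.79 higher in lesions than in Shh-MBs (limma adjusted p = 0.000738) and lower in Shh-MBs than in control eyes, at -3.13 (limma adjusted p = 0.000247), which as deposited is the order of groups of *Fbxw7*, whose difference between lesions and Shh-MBs turned with median centring. These 4 genes kept direction and call under the 4 scalings. *Ctnnb1* was 0.71 higher in lesions than in Shh-MBs (limma adjusted p = 0.000257) and -0.14 with median centring.

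Of the 7 beta-TrCP substrates, 3 were higher and 1 was lower in lesions than in Shh-MBs, of the 7 *Fbxw7* substrates 2 and 3, of the 4 *Skp2* substrates 1 and 2, of the 8 genes of the destruction complex and priming kinases 6 and 1, and of the 24 other ubiquitin genes 14 and 5. Of all genes, 48.1 percent were higher and 12.7 percent lower in this comparison as deposited. With median centring the list counts were 1 and 4, 1 and 5, 1 and 2, 0 and 2, and 5 and 10. Between Shh-MBs and control eyes, 0 were higher and 3 lower of the beta-TrCP substrates, 3 and 2 of the *Fbxw7* substrates, 1 and 1 of the *Skp2* substrates, 1 and 1 of the destruction complex and priming kinases, and 3 and 9 of the other ubiquitin genes, and median centring gave 4 and 1, 5 and 1, 1 and 1, 4 and 0, and 8 and 3. Here 9.61 percent of all genes were higher and 31.4 percent lower as deposited. The counts of all genes with median centring are given above. *Sufu*, which restrains Gli proteins, was lower in lesions than in Shh-MBs, with a log2 difference of -1.16 (limma adjusted p = 9.70e-05), and *Map3k1*, a kinase with a RING-like domain, differed by -3.40 (limma adjusted p = 3.62e-06). *Dtx4*, a Deltex ubiquitin ligase of the Notch pathway, was 3.09 higher (limma adjusted p = 1.83e-06). *Sufu*, *Map3k1* and *Dtx4* kept direction and call under the 4 scalings.

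The genes whose log2 signals ran most closely with each gene over the 12 samples were found by Pearson correlation, which is a description, since the samples fall into 3 groups and share 1 kind of scaling. For *Fbxw11* they were *Ppp3r1* (r = 0.990), *Aph1b* (r = 0.984) and *Ppp3cb* (r = 0.979), of which *Ppp3r1* and *Ppp3cb* encode subunits of calcineurin. For *Skp1a* they were *Fgf14* (r = 0.969), *Cacna2d3* (r = 0.962) and *Ppp2r1a* (r = 0.960), and for *Rbx1* they included *Gna11* (r = 0.970) and *Camk2b* (r = 0.948). For *Skp2* they were *Ccne2* (r = 0.954), *Wee1* (r = 0.947) and *Hells* (r = 0.938), and for *Fbxw7* they were *Mnat1* (r = 0.976), *Tiam1* (r = 0.969) and *Gli3* (r = 0.966). *Ccne2* and *Wee1* act in the cell cycle, and *Hells* encodes a chromatin remodeler. *Cul1* ran with *Abl1* (r = 0.917), *Polr2a* (r = 0.909) and *Ercc2* (r = 0.887), while *Ubb* had no close partner, the highest being *Lamb3* (r = 0.760), *Creb3l3* (r = 0.742) and *Ibsp* (r = 0.741). Between members, *Skp1a* and *Fbxw11* had r = 0.915, and *Skp1a* and *Skp2* r = -0.902.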

How the data were processed

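RNA of fresh-frozen lesions, eyes and tumors was counted with the nCounter system. The deposited values are normalized, linear signal that the authors obtained from nSolver and its Advanced Analysis module. A background had been subtracted, values without signal sit at 1 or at the value of 1 count, and each sample had been scaled so that the geometric mean of 20 reference genes, listed after gene names were seen, was 637.643. Background setting and reference genes are not given in the sources used here.

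Log2(signal + 1) was tested for each pair of groups over all 770 genes with limma (version 3.58.1, R 4.3.3, two-sided test, Benjamini-Hochberg adjustment, threshold 0.05). The fit was run on simulated data in which 200 genes changed in random directions and samples did not differ in scaling. That check therefore does not cover the dependence on scaling. Depth is the total signal divided by the value of 1 count and leaves out the subtracted background. Members and gene lists were chosen with earlier results of these data known. Of each list, up to 2 genes per direction with the largest differences among called genes without overlap were named, besides *Ctnnb1*, *Gli3*, *Ccne1*, *Myc*, *Cdkn1b* and *Cdkn1a*, and the 3 genes closest to each member by Pearson correlation, of which 1 is not reported here. The lists were written from general knowledge. *Gli2* was not on the panel. Alternatives were the Welch test named in the methods (p-values from the t distribution, without the study's permutations), exact permutation, other limma settings, scalings, a filter, a pseudocount of 5, a replicate block and leaving out each sample. Plots were made in Python 3.11.15 (matplotlib 3.10.9).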

Additional observations from a re-analysis of the deposited data

How the results depend on the processing

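The differences of *RBS* lesions to control eyes held under most settings, and those that involve Shh-MBs depended on the scaling. The Welch test named in the methods, run here without the study's permutations and with step-down Bonferroni adjustment, called 72, 80 and 36 genes in the 3 comparisons (lesions to control eyes, lesions to Shh-MBs, Shh-MBs to control eyes; 394, 468 and 316 with limma) and 0 of the 7 genes in each (5, 5 and 1 had an unadjusted p under 0.05, as did 399, 445 and 333 of all genes); with Benjamini-Hochberg adjustment it called 3 of 7 (380 of all genes) and 1 of 7 (217) in the comparisons with Shh-MBs. Exact permutation with this adjustment called 0 genes and 0 of 7 between Shh-MBs and control eyes, where 313 genes and 3 of 7 had an unadjusted p under 0.05. The smallest p of exact permutation with 3 against 4 samples, 0.0286, passes this adjustment only where a large part of all genes reach it. The 0 calls are therefore no sign that differences are absent. Of the 7 genes, 5 (median centring, 0 higher and 5 lower, 500 of all 770 genes), 3 (quantile normalization, 438) and 1 (total without the 3 most abundant genes, 437) were called between lesions and Shh-MBs, and 6 (median centring, 450), 4 (quantile, 368) and 4 (total, 337) between Shh-MBs and control eyes. Leaving out each sample in turn, 5 of 7 (350 to 392 of all genes) were called between lesions and control eyes, 4 to 5 (423 to 478) between lesions and Shh-MBs and 1 to 3 (250 to 313) between Shh-MBs and control eyes.

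Signs turned as follows. Between lesions and control eyes, *Cul1* was at -0.18 with median centring, -0.18 with quantile normalization, -0.0603 with the total and -0.0547 to 0.0995 when each sample was left out, and *Ubb* was at -0.0398 with median centring. Between lesions and Shh-MBs, median centring gave -0.48 for *Skp1a*, -0.26 for *Cul1*, -0.60 for *Rbx1*, -0.35 for *Fbxw11*, -0.11 for *Fbxw7* and -0.56 for *Ubb*; quantile normalization gave -0.19 for *Rbx1*; and the total gave -0.0102 for *Skp1a*, -0.13 for *Rbx1* and -0.0864 for *Ubb*. Between Shh-MBs and control eyes, median centring gave 0.0788 for *Cul1* and 0.52 for *Ubb*, the total gave 0.16 for *Ubb*, and leaving out each sample gave -0.0615 to 0.0581 for *Skp1a* and -0.0235 to 0.0395 for *Fbxw11*. The cause was not tested.

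The deviations of samples with the same number from their group means correlated weakly, in both directions (r = -0.15 to 0.19). The labels state no pairing, and these few correlations cannot exclude one. The block also takes out samples whose number has no partner in the other group, so that its differences are those of the matched samples. With the replicate block, 301, 407 and 230 genes and 4, 3 and 1 of the 7 genes were called; *Cul1* was at -0.0475 between lesions and control eyes and *Skp1a* at -0.0241 between Shh-MBs and control eyes. Values of the 7 genes rested on 79.3 counts or more.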

Other observations

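*Rps27a*, which encodes a ubiquitin fused to a ribosomal protein, was named after its values were seen. Its mean signal was 3.11 ± 2.63 (SD, n = 4) in control eyes, 6.66 ± 3.49 (n = 5) in *RBS* lesions and 6.84 ± 3.21 (n = 3) in Shh-MBs, which rests on a few counts per sample. The groups of *Rps27a* overlapped in all 3 comparisons (limma adjusted p = 0.157 for Shh-MBs to control eyes and 0.100 for lesions to control eyes).

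*Socs3*, a SOCS box protein that serves as substrate receptor of a cullin ligase and restrains cytokine signaling, was highest in Shh-MBs, with 65.9 to 98.0 in Shh-MBs, 28.7 to 34.6 in control eyes and 18.9 to 26.6 in lesions. *Socs1*, of the same family, was 1.92 higher in lesions than in Shh-MBs on the log2 scale (limma adjusted p = 5.87e-06), with 56.8 to 74.3 in lesions and 14.6 to 17.6 in Shh-MBs. The difference of *Socs3* between lesions and Shh-MBs was -1.82 (limma adjusted p = 3.59e-05). Both kept direction and call under the 4 scalings.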
